A study of Mus musculus with 6 samples.

Results

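Interleukins and their receptors were described in ribosome-associated RNA of lung pericytes, pulled down in 3 control and 3 Yap1,Wwtr1 iPCKO lung samples at postnatal day 8 (P8). The members were all protein-coding genes whose GENCODE M21 symbol begins with Il and a digit, and 82 of the 21603 genes in the files met this rule. Of these, 25 had at least 1 RPKM (read density, scaled to the length of the exons of a gene and to the mapped reads of the sample) in at least 3 of the 6 samples and are called detected here. The other 57 stayed under this level, and 11 of them were at 0 in every sample.

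The mice of both groups were on the C57BL/6 strain and carried Pdgfrb(BAC)-CreERT2, a transgene that expresses a tamoxifen-activated Cre recombinase in cells with an active Pdgfrb promoter. All also carried a floxed Rpl22 allele that, after recombination, tags the ribosomal protein RPL22 with hemagglutinin (HA), so that anti-HA beads recover RNA on the ribosomes of recombined cells. Control mice, labelled Yap1+/-;Wwtr1+/-, were heterozygous for the floxed alleles of Yap1 and Wwtr1 (which encodes TAZ), whereas Yap1,Wwtr1 iPCKO mice, labelled Yap1-/-;Wwtr1-/-, were homozygous for both. Tamoxifen was given from P0 to P2 in both groups, so that, by the labels, controls kept 1 functional copy of each gene and mutants none.

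Interleukins are secreted cytokines through which leukocytes, epithelium and stromal cells signal to each other, and most act at short range and at low transcript levels. Receptors of the IL-1 and IL-18 group and of the IL-17 group signal through adaptor proteins and NF-κB, while those of the IL-2, IL-6 and IL-10 groups signal through JAK kinases and STAT factors. Pericytes and other stromal cells are known mainly as recipients of these signals, although they can also release cytokines such as IL-6, IL-33 and IL-34.

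Low RPKM values came in steps of single reads, and the size of these steps implied that iPCKO 3 was scaled to the fewest reads (14240000), followed by control 2 (17410000), and iPCKO 2 to the most (39580000). Pdgfrb, the gene behind the Cre driver, had 1193 to 1666 RPKM across the samples, and the mean log2(RPKM + 0.1) over 8 pericyte markers was 7.09 to 7.50 in controls and 7.29 to 7.51 in iPCKO samples. The RNA also held transcripts of other lung cells, such as the surfactant gene Sftpc at 338 to 467 RPKM. Yap1 had 12.4 ± 0.859 RPKM in controls (here and throughout mean ± SD, n = 3) against 5.61 ± 0.314 RPKM in mutants. Wwtr1 had 60.4 ± 9.48 and 62.0 ± 1.63 RPKM, but these totals over all exons do not separate the recombined ones and so do not check the deletion. In the bulk RNA of a pulldown, fewer cells of a type and less RNA per cell cannot be told apart.

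Receptors made up most of what was detected. Of 41 receptor genes 17 were detected, compared with 6 of 38 genes for cytokines, antagonists and binding proteins of the named interleukin families. The 3 genes outside these families were the cytokines Il16 and Il34, which were also detected, and the enzyme gene Il4i1, which was not. Il6st, which encodes gp130, the signalling subunit shared by the receptors for IL-6, IL-11, LIF and oncostatin M, had the highest level in controls (51.2 ± 7.65 RPKM). Il13ra1, a receptor subunit for IL-13 and, together with Il4ra, for IL-4, followed with 31.1 ± 5.14 RPKM, and Il1rl2, the receptor for IL-36 cytokines, with 11.8 ± 2.14 RPKM. Next in order were Il17rc (9.73 ± 2.66 RPKM) and Il4ra (9.55 ± 0.797 RPKM). Il1rl2 was above both in every control sample, while Il17rc was above Il4ra in control 1 only, and these orders were not tested. In mutants Il6st had fallen to 21.6 ± 0.559 RPKM and the highest member was Il13ra1, with 28.7 ± 0.949 RPKM. No cytokine of the IL-6 and IL-12 group and none of the IL-10 group was detected.

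**Figure D1:**
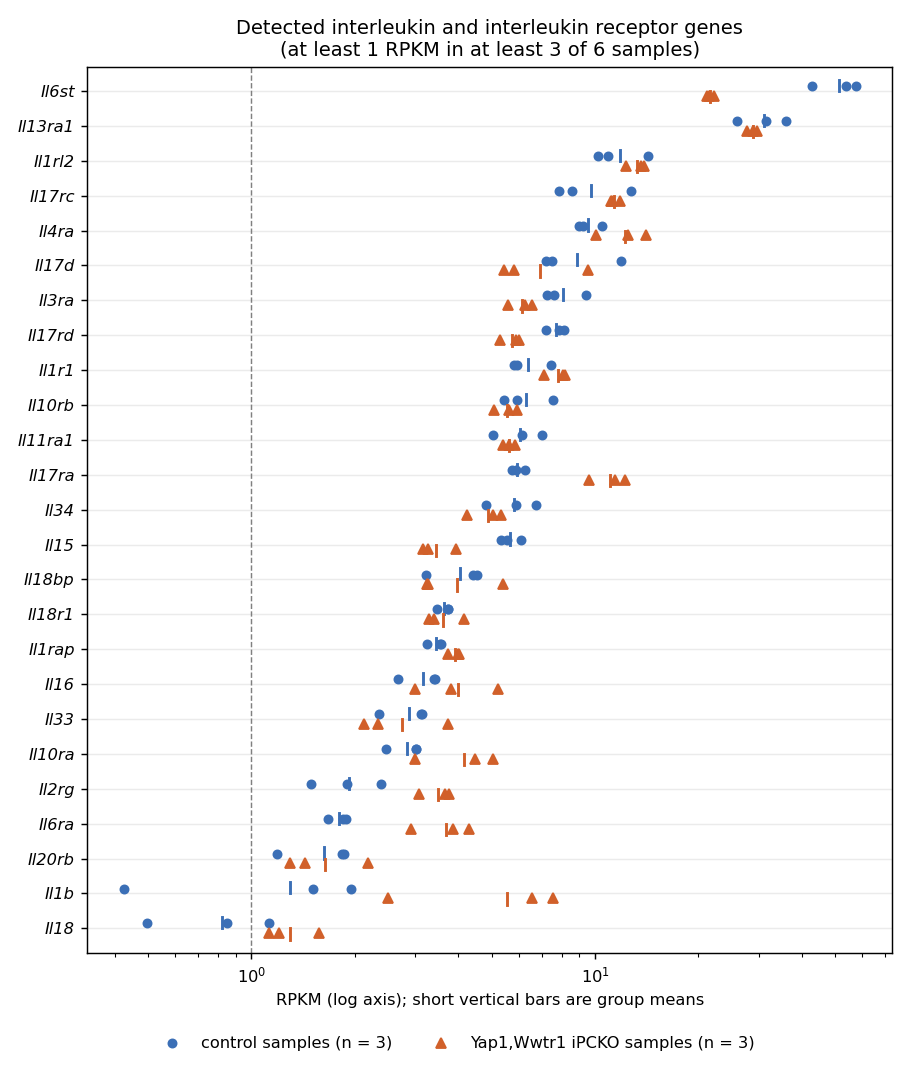
RPKM of the 25 detected members in each sample on a log axis, ordered by the control mean, with circles for the 3 control and triangles for the 3 Yap1,Wwtr1 iPCKO samples and short bars for group means. Il6st lies at 42.7 to 57.4 RPKM in controls and at 21.1 to 22.2 RPKM in mutants, and all members but Il6st and Il13ra1 lie below 15 RPKM.

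Between mutants and controls, 4 of the 25 detected members passed the thresholds that the study set, here applied to limma on log2(RPKM + 0.1). These were a log2 fold change beyond 0.5 in either direction and a p-value, adjusted over all genes, under 0.01. Il6st and Il15 fell, and Il17ra and Il6ra rose. Across all 12034 genes tested in the same fit, 6.79% passed (4.11% of all tested genes were higher and 2.68% lower in mutants), beside 16.0% of the members. The median log2 fold change of the 25 members was -0.0028, against -9.7e-05 for all tested genes. In 10 members the samples of both groups did not overlap (iPCKO higher in 6 and lower in 4), a share near the 35.5% of all tested genes.

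**Figure D2:**
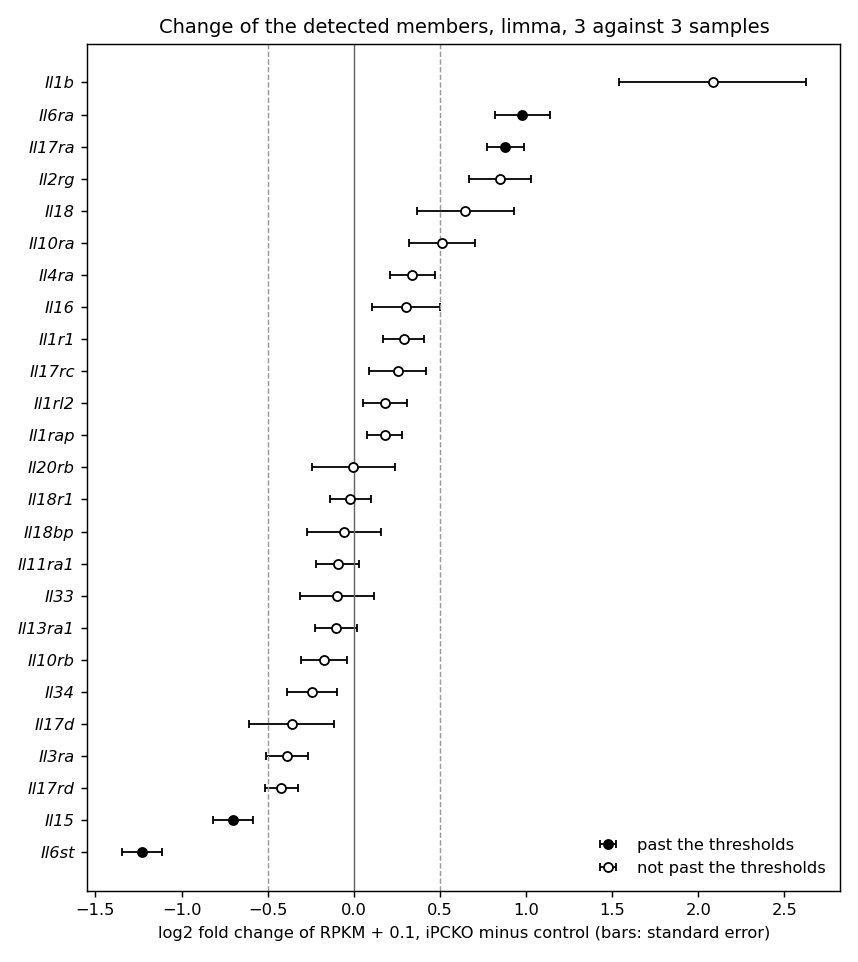
Log2 fold change of RPKM + 0.1 (iPCKO minus control) for the 25 detected members, with the standard error from limma, filled circles for members past the thresholds and dashed lines at the log2 fold change threshold of 0.5. Il6st (-1.23) and Il15 (-0.70) are the filled circles on the left, and Il17ra (0.88) and Il6ra (0.98) those on the right, while Il1b has a larger estimate (2.08) with the widest error.

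Il6st (ENSMUSG00000021756, chromosome 13 of GRCm38, 112464070 to 112510086, plus strand) had 42.7, 53.6 and 57.4 RPKM in control 1, 2 and 3 and 21.4, 21.1 and 22.2 RPKM in iPCKO 1, 2 and 3. Every mutant sample lay at about the same level and below every control. The mutant mean was 0.421 of the control mean, and the fitted difference was -1.23 on the log2(RPKM + 0.1) scale (standard error 0.116, adjusted p = 0.00033). Il6ra (ENSMUSG00000027947, chromosome 3, 89864059 to 89913196, minus strand), which encodes the subunit that binds IL-6 itself, moved in the opposite direction. It had 1.85, 1.89 and 1.67 RPKM in controls against 2.91, 3.86 and 4.30 RPKM in mutants, so that the groups did not overlap. The mutant mean was 2.05 times the control mean, and the fitted difference was 0.98 on the log2 scale (standard error 0.159, adjusted p = 0.0043). Il6ra did not pass in the fits without control 1 (adjusted p = 0.0146), control 2 (0.0136), control 3 (0.0222), iPCKO 2 (0.0236) or iPCKO 3 (0.0169), while Il6st passed in each fit that left out a sample.

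RPKM are scaled to exon length, although the lengths used are not given. The levels of both subunits were therefore set side by side within a sample, a ratio chosen after the values had been seen. Il6st exceeded Il6ra 23.0-, 28.4- and 34.3-fold in control 1, 2 and 3, but 7.35-, 5.47- and 5.17-fold in iPCKO 1, 2 and 3. The mean log2 ratio differed by -2.25 between the groups, a description of both calls together and no further test. In the mixed RNA of the pulldown the transcripts of both subunits need not come from the same cells, which was not tested.

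Of the other receptor subunits that pair with gp130, none that was tested passed. Il11ra1, the IL-11 binding subunit, had 6.05 ± 0.973 RPKM in controls against 5.62 ± 0.238 RPKM in mutants (log2 fold change -0.09, adjusted p = 0.67). Its value is uncertain, since Il11ra2 is a closely related copy and reads that map to both are hard to assign. Lifr, the LIF receptor, had 16.9 ± 1.31 and 13.5 ± 0.903 RPKM (log2 fold change -0.32, adjusted p = 0.054), and Osmr, the oncostatin M receptor, 2.14 ± 0.131 and 2.23 ± 0.910 RPKM. Cntfr, the CNTF receptor subunit, had 1.03 ± 0.139 RPKM in controls against 1.63 ± 0.286 RPKM in mutants, without overlap (log2 fold change 0.61, adjusted p = 0.060). Among cytokines that signal through gp130, Clcf1 was detected, with 1.26 ± 0.252 and 1.14 ± 0.357 RPKM (adjusted p = 0.72), and Ctf1 reached 1.40 RPKM in control 1. Il6 had at most 0.211 RPKM and Il11 at most 0.458 RPKM in any sample.

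The sequences before the annotated starts of Il6st and Il6ra are shown because these subunits of the same receptor changed in opposite directions. Each is 250 bases from RefSeq (GRCm38.p6), read 5′ to 3′ on the strand of the gene and ending at the base before the start, with CG dinucleotides in capitals. Il6st is at chr13:112463820-112464069 (plus strand) and Il6ra at chr3:89913197-89913446 (minus strand).
Il6st: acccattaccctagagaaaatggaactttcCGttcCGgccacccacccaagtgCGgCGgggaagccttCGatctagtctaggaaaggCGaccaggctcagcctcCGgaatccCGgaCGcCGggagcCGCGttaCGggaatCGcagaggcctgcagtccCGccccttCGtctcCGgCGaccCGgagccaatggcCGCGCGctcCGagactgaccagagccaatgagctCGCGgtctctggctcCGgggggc
Il6ra: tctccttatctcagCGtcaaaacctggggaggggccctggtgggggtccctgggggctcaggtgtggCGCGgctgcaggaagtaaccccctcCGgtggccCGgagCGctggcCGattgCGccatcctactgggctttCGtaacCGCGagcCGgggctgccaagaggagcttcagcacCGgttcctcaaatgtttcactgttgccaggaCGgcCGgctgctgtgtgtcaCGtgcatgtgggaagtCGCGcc
These stretches hold 26 CG dinucleotides for Il6st and 18 for Il6ra. In the 300-base windows that add the 50 bases after the start, the counts were 33 and 25, compared with a median of 7 over 32851 promoter windows. Neither window matched GGAATG, the core of the motif bound by TEAD factors (the DNA-binding partners of YAP1 and TAZ), nor the AP-1 motif TGANTCA or the STAT motif TTCNNNGAA, on either strand. Promoter windows were found for 65 of the 82 members, and GGAATG was in those of 13 members, TGANTCA of 14 and TTCNNNGAA of 10. Of all windows, 14.7%, 7.81% and 8.30% held these motifs. These shares are per window, whereas a member was counted when any of its windows matched. The counts of members and the shares of windows can therefore not be compared directly. Among detected members with a window (20 of 25), GGAATG matched for Il11ra1, Il1r1, Il2rg and Il33. Il15 and Il17ra had no entry.

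In the group of IL-2, IL-4 and related cytokines, Il15 was the only one of 9 genes that was detected. Il15 (ENSMUSG00000031712, chromosome 8, 82331632 to 82403222), which encodes a survival factor of natural killer cells and memory T cells that is presented by neighbouring cells, had 5.56, 5.32 and 6.10 RPKM in controls against 3.27, 3.16 and 3.93 RPKM in mutants. All mutant samples lay below all controls, and the fitted difference was -0.70 on the log2 scale (standard error 0.117, adjusted p = 0.0050). In fits that left out a sample, the adjusted p-value was 0.0156 without control 1, 0.0148 without control 2, 0.0293 without control 3, 0.0121 without iPCKO 1 and 0.0259 without iPCKO 2, and Il15 did not pass there. Il15ra, which presents IL-15 on the cell surface, stayed under 1 RPKM in all samples, with 0.620 ± 0.170 RPKM in controls against 0.748 ± 0.211 RPKM in mutants.

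Of the 12 receptor genes of that group 4 were detected and none passed. Il2rg, the common gamma chain of leukocyte receptors for IL-2, IL-4, IL-7, IL-9, IL-15 and IL-21, had 1.49, 1.90 and 2.39 RPKM in controls against 3.07, 3.67 and 3.76 RPKM in mutants. The groups did not overlap, but with a log2 fold change of 0.85 Il2rg did not pass (adjusted p = 0.0143). The value is also uncertain because 30.5% of the exon length of Il2rg is shared with the annotated gene Gm20489 on the same strand. Il3ra, the IL-3 binding subunit, had 8.09 ± 1.18 RPKM in controls against 6.13 ± 0.489 RPKM in mutants, without overlap (log2 fold change -0.39, adjusted p = 0.067). Il4ra had 9.55 ± 0.797 and 12.2 ± 2.03 RPKM (log2 fold change 0.34, adjusted p = 0.12), and Il13ra1 had a log2 fold change of -0.10 (adjusted p = 0.62).

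In the IL-17 group, 3 of 5 receptor genes were detected but, apart from Il17d, none of the 6 cytokine genes. Il17ra (ENSMUSG00000002897, chromosome 6, 120463247 to 120487559) encodes the subunit common to the IL-17 receptors. It had 6.24, 5.88 and 5.72 RPKM in controls against 9.61, 11.4 and 12.2 RPKM in mutants. The mutant mean was 1.86 times the control mean, with a fitted difference of 0.88 on the log2 scale (standard error 0.107, adjusted p = 0.0011), and Il17ra passed in every fit that left out a sample. Il17rc, which pairs with Il17ra to bind IL-17A and IL-17F, had 9.73 ± 2.66 and 11.4 ± 0.369 RPKM (log2 fold change 0.26, adjusted p = 0.34). Il17rd, also known as Sef, an inhibitor of FGF signalling, had 8.12, 7.19 and 7.83 RPKM in controls against 6.02, 5.90 and 5.29 RPKM in mutants. Its groups did not overlap, yet its log2 fold change of -0.42 was under the threshold of 0.5 and its adjusted p-value was 0.0206. Il17d, with 1 annotated transcript, had 11.9, 7.51 and 7.20 RPKM in controls against 9.56, 5.43 and 5.80 RPKM in mutants, which overlapped (adjusted p = 0.37).

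**Figure D3:**
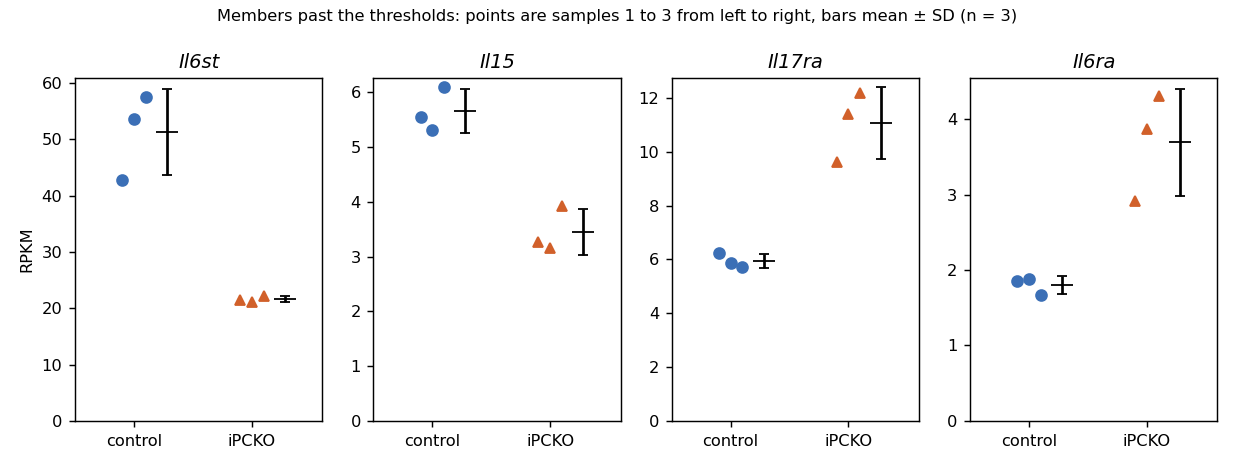
RPKM of the 4 members past the thresholds in each sample, with the axis from 0, points for samples 1 to 3 from left to right and bars for mean ± SD (n = 3 per group). For Il6st and Il15 all iPCKO points lie below all control points, and for Il17ra and Il6ra above them.

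None of the 8 detected genes of the IL-1 family passed the thresholds. Il1b, which encodes the inflammatory cytokine IL-1β of myeloid cells, had 0.426, 1.95 and 1.51 RPKM in controls against 2.5, 6.56 and 7.54 RPKM in mutants. Every mutant sample was above every control, but the spread was wide in both groups, with iPCKO 1 close to control 2. Il1b did not pass, at 2.08 on the log2 scale (standard error 0.543, adjusted p = 0.0348). Il18 had 0.497, 1.12 and 0.848 RPKM in controls against 1.12, 1.20 and 1.57 RPKM in mutants, with iPCKO 1 just above control 2 (adjusted p = 0.16). Il1b and Il18 reached 1 RPKM in all mutant but not in all control samples and so passed the detection filter partly through the mutants. Il33, an alarmin stored in nuclei, had 2.87 ± 0.446 and 2.73 ± 0.879 RPKM (adjusted p = 0.80), while Il1rl1, its receptor, had 0.285 RPKM or less in every sample. Il18bp, a secreted inhibitor of IL-18, had 4.06 ± 0.724 and 3.97 ± 1.25 RPKM (adjusted p = 0.89).

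Of the 9 receptor genes of the IL-1 family 4 were detected. Il1r1, the signalling receptor for IL-1, had 6.39 ± 0.903 RPKM in controls against 7.79 ± 0.601 RPKM in mutants (log2 fold change 0.29, adjusted p = 0.15). Il1rap, the co-receptor for IL-1, IL-33 and IL-36, had 3.44 ± 0.183 and 3.91 ± 0.156 RPKM, with all mutant samples above all controls (log2 fold change 0.18, adjusted p = 0.28). Il1rl2 had 14.2, 10.9 and 10.2 RPKM in controls against 13.6, 13.9 and 12.3 RPKM in mutants (adjusted p = 0.39), and Il18r1, the IL-18 binding subunit, had 3.64 ± 0.154 and 3.61 ± 0.473 RPKM (adjusted p = 0.93).

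The remaining detected members did not pass either. Il10ra, the IL-10 binding subunit, had 2.47, 3.02 and 3.02 RPKM in controls against 2.98, 4.46 and 5.05 RPKM in mutants, so that iPCKO 1 lay within the controls (log2 fold change 0.51, adjusted p = 0.11). It passed only in the fit without iPCKO 1 (adjusted p = 0.00999, log2 fold change 0.73). Il10rb, a subunit shared by receptors of the IL-10 family, had 6.31 ± 1.09 and 5.55 ± 0.429 RPKM (adjusted p = 0.43), and 14.9% of its exon length is shared with Gm21970 on the same strand. Il20rb had 1.63 ± 0.383 and 1.63 ± 0.481 RPKM (adjusted p = 0.996). Il34, which encodes a ligand of the macrophage receptor CSF1R, had 5.81 ± 0.970 and 4.87 ± 0.564 RPKM (adjusted p = 0.30), and Il16, a chemoattractant for CD4+ cells, 3.16 ± 0.421 and 4.0 ± 1.12 RPKM (adjusted p = 0.35). Of the exon length of Il16, 15.3% overlaps Stard5 on the opposite strand.

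Among the 57 members under the filter, 12 exceeded 0.5 RPKM in at least 1 sample, 34 were above 0 but never above 0.5 RPKM (highest value 0.458), and 11 were at 0 throughout. The members nearest to the filter were Il18 on the inside, at 1 RPKM or more in 4 samples, and Il1r2, Il1f9 and Il21r on the outside, with 2 samples each. Il1r2, a decoy receptor that binds IL-1 without signalling, had 0.0759, 0.0429 and 0.194 RPKM in controls against 0.601, 3.64 and 4.93 RPKM in mutants, the largest ratio of group means among these 12 members. In the fit without a filter Il1r2 did not pass either, at 3.6 on the log2 scale (standard error 0.690, adjusted p = 0.0160). Il1f9, which encodes the cytokine IL-36γ, had 0.185, 0.522 and 0.332 RPKM in controls against 0.516, 1.55 and 2.89 RPKM in mutants. With its single annotated transcript of 1648 bases, this equals about 6, 15 and 19 reads in controls and 18, 101 and 68 reads in mutants. The groups overlapped, since control 2 lay above iPCKO 1.

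Il18rap, the accessory chain of the IL-18 receptor, had 0.308 to 0.416 RPKM in controls against 0.560, 0.934 and 1.77 RPKM in mutants, without overlap. Il1rn, the secreted antagonist of the IL-1 receptor, had 0.306 to 0.348 RPKM in controls against 0.398, 0.739 and 1.27 RPKM in mutants, also without overlap. In the fit without a filter their adjusted p-values were 0.066 and 0.13. Like Il1r2, both exceeded 0.5 RPKM in mutants only, and so were named through the group where they were higher. Of all tested genes, 35.5% had groups without overlap, in either direction. The other 9 of the 12 members overlapped between the groups, among them Il21r (0.484 ± 0.192 and 0.912 ± 0.194 RPKM), Il2rb (0.282 ± 0.0393 and 0.470 ± 0.145 RPKM) and Il27ra (0.647 ± 0.0982 and 0.786 ± 0.0672 RPKM). Il12a had 0.385 ± 0.214 and 0.267 ± 0.124 RPKM, Il17re 0.627 ± 0.0300 and 0.727 ± 0.221 RPKM, Il1a 0.297 ± 0.0865 and 0.375 ± 0.168 RPKM, and Il4i1, an enzyme induced by IL-4 and not itself an interleukin, 0.441 ± 0.172 and 0.30 ± 0.101 RPKM.

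**Figure D4:**
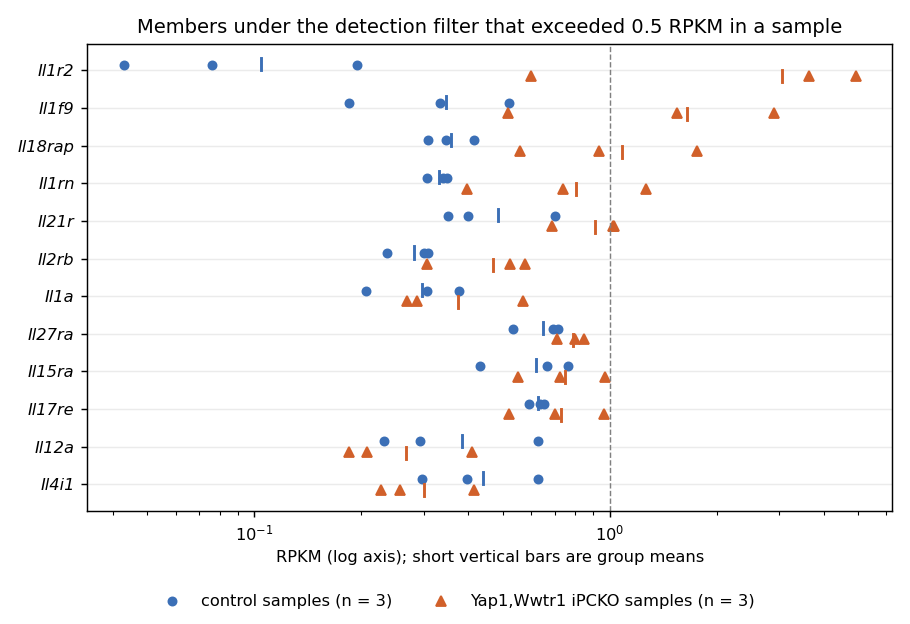
RPKM on a log axis of the 12 members under the detection filter that exceeded 0.5 RPKM in a sample, ordered by the ratio of group means, with circles for the 3 control and triangles for the 3 Yap1,Wwtr1 iPCKO samples, short bars for group means and a dashed line at 1 RPKM. Il1r2, Il18rap and Il1rn have all mutant samples above all controls, with Il1r2 at 0.601 to 4.93 RPKM in mutants, but they exceeded 0.5 RPKM in mutants only.

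Il1f5, Il1f6, Il1f8, Il1f10, Il1rapl2, Il3, Il9, Il20, Il21, Il22 and Il31 were at 0 in all samples. At these depths, 3 reads on 1 kb of exons equal 0.0758 RPKM in iPCKO 2 and 0.211 RPKM in iPCKO 3, so levels below these rest on fewer than 3 reads per kilobase. Counts of other T cell and helper cytokines were equally small. Il17a had 6 reads in iPCKO 2 and none elsewhere, Il13 had 2 reads over all samples, Il2 had 2 and Il5 had 3. Il10 had 11 reads over all samples. These read numbers and limits cover counting error only.

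Levels of blood cell markers were also higher in mutants. Over 10 neutrophil markers, the mean log2(RPKM + 0.1) was 1.46 to 2.14 in controls and 3.47 to 6.57 in mutants, the summed level was 83.4 to 121.9 RPKM against 440.1 to 4792 RPKM, and all 10 genes were higher in every mutant than in every control. Of 10 general leukocyte markers 8 were higher without overlap (summed level 48.2 to 66.4 against 95.6 to 179.5 RPKM), of 9 macrophage and monocyte markers all 9 (15.5 to 26.6 against 36.4 to 64.3 RPKM), and of 8 platelet markers 7 (13 to 15.1 against 34.8 to 80.8 RPKM). None of the listed genes was at 0 in all samples. T cell markers summed to 2.95 to 4.61 RPKM in controls against 2.89 to 3.87 RPKM in mutants, and B cell markers to 7.42 to 8.00 and 3.02 to 6.81 RPKM. Neutrophil markers were lowest in iPCKO 1 and highest in iPCKO 3 among the mutants, and the same held for Il1r2, Il1b, Il17ra, Il6ra, Il2rg, Il18, Il18rap and Il1rn. It also held for detected members whose groups overlapped, namely Il10ra, Il16, Il4ra, Il20rb, Il18bp, Il33, Il18r1 and Il34. Of these, Il18bp, Il33, Il18r1 and Il34 had a lower mean in mutants than in controls. In total 15 detected members had overlapping groups, and the share of all such tested genes with this order was not computed. Of the 6 detected members with all mutants above all controls, 5 had this order, compared with 571 of 2205 such genes in the whole fit. Among these 5, Il1b and Il18 had passed the detection filter partly through the mutants, so this count is a description and no test. The part of these blood cells in the results for Il17ra, Il6ra, Il1b and Il2rg was not tested. In the fit without iPCKO 3, Il17ra passed at 0.81 on the log2 scale (adjusted p = 0.0047), while Il6ra did not pass at 0.86 (0.0169), nor did Il2rg at 0.79 (0.0526) or Il1b at 1.79 (0.115). This fit cannot separate the part of blood cells, because neutrophil markers in iPCKO 1 (3.47) and iPCKO 2 (5.30) were also above all controls. Il6ra also did not pass without iPCKO 2 (adjusted p = 0.0236) or without any 1 of the controls.

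B cell markers were lower in mutants, as were Il6st and Il15. Their mean log2(RPKM + 0.1) was 0.587 to 0.675 in controls and -0.650 to 0.477 in mutants, and 3 of 5 genes were lower without overlap. The endothelial list was at 3.81 to 3.99 in controls and 3.87 to 3.96 in mutants, and the fibroblast list at 3.97 to 4.19 and 3.87 to 4.15 on the same log2 scale. Epithelial markers were higher in mutants, at 4.21 to 4.28 against 3.80 to 3.86, and 6 of 9 genes were higher without overlap. The smooth muscle list was at 7.09 to 7.27 in mutants against 6.57 to 6.78 in controls. Only 2 of its 5 genes, Cnn1 and Actg2, were higher without overlap, while Acta2, Myh11 and Des overlapped. Within the pericyte list 4 of 8 genes were higher in mutants without overlap (Cspg4, Kcnj8, Abcc9 and Higd1b), and 3 were lower (Notch3, Rgs5 and Cox4i2). The part of these cell types in the results for Il6st and Il15 was not tested.

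**Figure D5:**
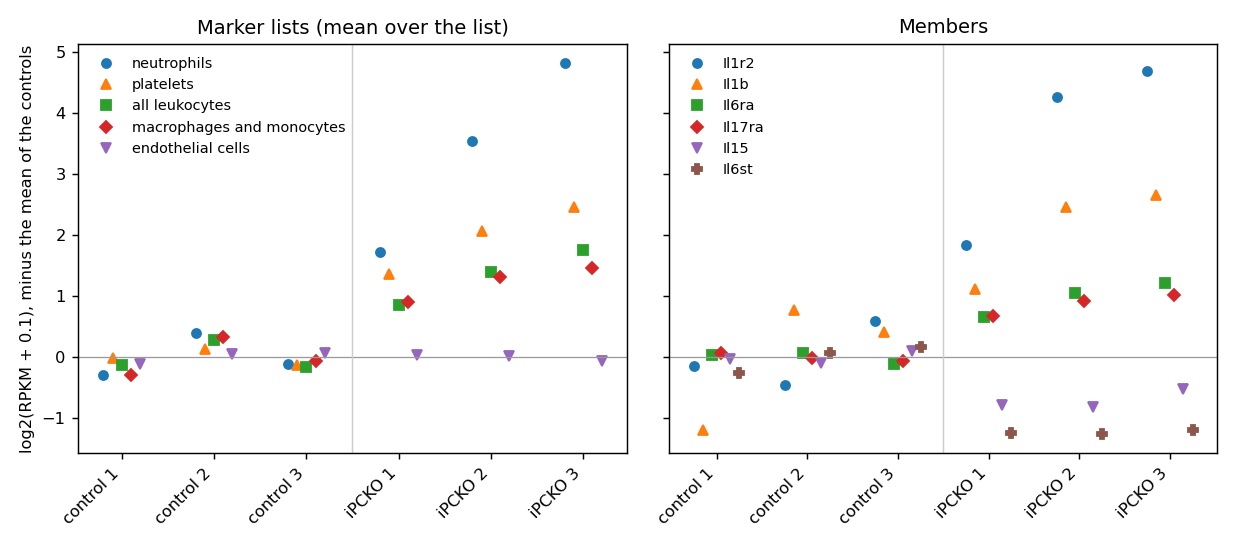
Level in each sample as log2(RPKM + 0.1) minus the mean of the 3 controls, for the mean over 5 marker lists (left) and for 6 members (right). Neutrophil markers and Il1r2 are highest in iPCKO 3 and lowest among mutants in iPCKO 1, whereas Il6st and Il15 lie below all controls in each mutant and endothelial markers stay near 0.

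Other genes of interleukin signalling were taken from lists of 61 genes, of which 52 were tested. Of these, 4 passed (7.69%, near the 6.79% of all tested genes), all of them higher in mutants, and the median log2 fold change was 0.05. Socs3, an inhibitor of gp130 signalling that is itself induced by STAT3, rose from 7.11, 7.50 and 5.74 RPKM in controls to 12.6, 12.9 and 14.0 RPKM in mutants. The mutant samples lay close together, and the difference was 0.95 on the log2 scale (standard error 0.115, adjusted p = 0.0010). Among the mutants Socs3 was lowest in iPCKO 1 and highest in iPCKO 3, as were the neutrophil markers. The other 3 were Csf3r, Csf2rb and Ptpn6, which are expressed in myeloid cells. The part of blood cells in the results for these 4 genes, Socs3 included, was not tested. Csf3r, the G-CSF receptor and itself on the neutrophil list, rose from 1.54 ± 0.329 to 12.4 ± 5.86 RPKM (log2 fold change 2.82). Csf2rb, the beta chain shared by receptors for IL-3, IL-5 and GM-CSF, rose from 1.89 ± 0.210 to 5.98 ± 1.91 RPKM (1.56), although its close copy Csf2rb2 makes the value uncertain. Ptpn6, the phosphatase SHP-1, rose from 2.90 ± 0.579 to 8.12 ± 2.23 RPKM (1.43). Csf2rb and Ptpn6 did not pass without control 1 (adjusted p = 0.0120 and 0.0140), control 3 (0.0116 and 0.0130) or iPCKO 2 (0.0108 and 0.0115), so that 2 genes of these lists passed there, while 8 passed without iPCKO 1.

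None of the 4 JAK kinases, 6 tested STAT factors or 14 adaptors and kinases of the IL-1 and IL-17 receptors passed. Jak1, the kinase bound by gp130 and by the receptors for IL-4 and IL-10, had 43.3 ± 2.49 RPKM in controls against 41.3 ± 1.5 RPKM in mutants (adjusted p = 0.65). Jak3, the kinase bound by the common gamma chain, had 2.11 ± 0.153 and 3.43 ± 0.418 RPKM, without overlap, and was just short of the threshold (log2 fold change 0.67, adjusted p = 0.0109). It passed without iPCKO 1, without an intensity trend and among genes of at least 1 RPKM in all 6 samples. Stat3, the main factor downstream of gp130, had 10.5 ± 0.392 and 14.8 ± 2.19 RPKM, and Stat6, which acts downstream of IL-4 and IL-13, had 31.7 ± 1.49 and 25.2 ± 0.374 RPKM, both without overlap. Their log2 fold changes of 0.47 (adjusted p = 0.030) and -0.33 (adjusted p = 0.026) did not pass. Myd88, the adaptor of the IL-1 and IL-18 receptors, had 8.58 ± 0.432 and 11.8 ± 0.335 RPKM. It had an adjusted p-value of 0.0077 but a log2 fold change of 0.46, under the threshold of 0.5.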

How the data were processed

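Ribosome-associated RNA from 3 control and 3 Yap1,Wwtr1 iPCKO lung samples was analysed, with groups and replicate numbers taken from the sample titles. The labels do not name the animal behind each sample, so p-values measure the spread between these samples. Per the methods, the authors sequenced strand-specific total RNA libraries from both ends, aligned with TopHat to the mouse build mm10 (GRCm38), and obtained gene counts from HTSeq, which they tested with DESeq2. HTSeq 0.6.1 is the version in the submitters' processing notes. The authors deposited RPKM values per Ensembl gene, 1 table per sample. The exon length per gene and the strand setting of the counting are not given in the sources used here. RPKM carry no read numbers, so no count test was run, and the depth was read from the steps of low values in genes with 1 annotated transcript (75.1% to 77.1% of values of up to 10 reads lay within 0.02 of a whole read).

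Symbols, exon lengths and coordinates (1-based, GRCm38) came from GENCODE M21, which matched 21375 of 21603 genes. The 12034 genes that reached 1 RPKM in 3 or more samples were tested as log2(RPKM + 0.1) with limma 3.58.1 in R 4.3.3 (eBayes with an intensity trend, Benjamini-Hochberg adjustment over all 12034). On this scale the pseudocount of 0.1 shrinks the differences of genes with low values. All members of at least 1 RPKM in 3 samples, members above 0.5 RPKM in a sample and pathway genes past the thresholds were named with their values, and a few others were chosen after their values were seen. The members and lists were chosen with earlier results of these data known. The fitting code was tested on simulated data. Figures were drawn with matplotlib 3.10.9.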

Additional observations from a re-analysis of the deposited data

How the results depend on the processing

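Of the interleukin genes, 4 passed the thresholds, and under most alternatives the number was within 1.5 times of this (6 with the replicate block or at an adjusted p-value below 0.05). It was 2 without a filter on low values (Il6st and Il17ra, over 17678 genes tested), 1 at an absolute log2 fold change above 1 (Il6st), and 2 to 4 with a sample left out. Of the pathway genes 4 passed, 7 at an adjusted p-value below 0.05 and 2 to 8 with a sample left out. Il6st and Il17ra passed under all 14 alternatives that refitted the data, with log2 fold changes of -1.36 to -1.14 and 0.79 to 0.98. Il6ra and Il15 each passed under 8 of the 14 and kept their direction, with adjusted p-values up to 0.0236 and 0.0293. Without a filter these were 0.0106 and 0.0111. In the fit with the replicate block, Il1b (adjusted p = 0.0003) and Il2rg (0.0059) also passed, and 6 pathway genes did. Deviations from the group means correlated with r = 0.238, 0.0919 and 0.0225 in the pairs that share a number, so the numbers were not taken to pair the samples, and not every sample correlated best with its own number. Median-ratio scaling and quantile normalization left the number at 4. The depth limits members under about 0.2 RPKM, where single samples hold a few reads.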

Other observations

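Some genes on the pathway lists stayed under the detection filter but differed between the groups without overlap. Ebi3, a subunit of the cytokines IL-27 and IL-35, had 0.345 ± 0.245 RPKM in the 3 controls (mean ± SD) against 1.52 ± 0.806 RPKM in the 3 mutants. Lif, a cytokine that signals through gp130, had 0.341 ± 0.0483 and 0.477 ± 0.0719 RPKM, and Osm, which encodes oncostatin M, 0.200 ± 0.137 and 0.512 ± 0.173 RPKM. Ctf1, which encodes cardiotrophin-1, another ligand of gp130, had the opposite order, with 1.13 ± 0.272 RPKM in controls against 0.639 ± 0.155 RPKM in mutants. Csf2rb2 had 0.402 ± 0.0475 RPKM in controls against 1.19 ± 0.383 RPKM in mutants. For Lif the groups were barely apart, with 0.396 RPKM in control 2 and 0.402 RPKM in iPCKO 1. Of all tested genes, 35.5% had groups without overlap, in either direction. The genes named here were not in the main fit, and were picked after their values had been seen.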
